A study of Mus musculus with 2 samples.

Results

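Jun, Junb, Jund, Fos and Fosb were followed over 2 coronal sections of mouse brain in which RNA had been captured on a slide of barcoded spots. The genes were found by their symbols, and each of the 5 symbols matched 1 row among the 32285 genes counted. They encode members of AP-1, a transcription factor made of a pair of proteins joined through a leucine zipper. Jun proteins can pair with each other or with a Fos protein, whereas Fos proteins need a Jun partner to bind DNA. In neurons most of these genes are immediate early genes, whose transcription rises within minutes of synaptic activity and then falls, so that their RNA is widely used as a sign of recent firing. Jund is the member of the group known for steady expression in many cell types.

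Each section came from 1 male ArcCreERT2::eYFPflx mouse, 3 to 4 months old, on a C57BL/6 background. In this line the Arc promoter drives a drug-inducible Cre and a floxed reporter labels the cells in which it acts, and both mice carried both alleles. The mouse labelled Trained had been taught active place avoidance, in which an animal on a rotating arena learns to keep out of a sector where its feet are shocked, and the mouse labelled Untrained had walked the same arena with the shock off. Both brains were taken after a final shock-free test of retention. With 1 section per label, training could not be told apart from animal, section and library, no difference between the labels had a replicate check, and the intervals given below are 95% intervals for counting error only.

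The section labelled trained held 4152 spots over tissue with 29515831 UMIs (unique molecular identifiers, which count captured RNA molecules rather than reads), a median of 5950 a spot. The section labelled untrained was smaller and deeper, with 3738 spots, 59029131 UMIs and a median of 13766. Levels were therefore scaled to UMIs per 1000000 UMIs (CPM), and comparisons between spots were made at equal depth. The sections shared 3448 barcodes, which are positions on the slide design and not shared cells. A spot covers several cells or parts of cells, so that fewer cells of a type and less RNA per cell could not be told apart. Spots were grouped into 22 clusters without use of the AP-1 genes, and the clusters were joined into 15 regions, of which 12 were named from marker genes and the others kept their cluster number. In every named region but the deep neocortex, where 6 of 7 did so in both sections, all markers stood above the rest of the section.

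The promoters are shown with matches to a family of short response elements. The best known of these in neurons is the cyclic AMP response element (CRE, TGACGTCA), bound by CREB proteins. Each window runs from 250 bases before the start of transcription to 50 after it, on the strand of the gene in mm10. Jun lies at chr4:95052173-95052472, Junb at chr8:84978699-84978998, Jund at chr8:70698699-70698998, Fos at chr12:85473640-85473939 and Fosb at chr7:19309996-19310295. The windows of Jun, Junb, Fos and Fosb are those of RefSeq on mm10. For Jund the RefSeq window lay upstream, at chr8:70697489-70697788, and held none of the motifs searched, so the window at the start annotated by GENCODE is printed in its place. Capitals mark the CRE, its variant TGACATCA and the CRE core TGACG, read on both strands.
Jun: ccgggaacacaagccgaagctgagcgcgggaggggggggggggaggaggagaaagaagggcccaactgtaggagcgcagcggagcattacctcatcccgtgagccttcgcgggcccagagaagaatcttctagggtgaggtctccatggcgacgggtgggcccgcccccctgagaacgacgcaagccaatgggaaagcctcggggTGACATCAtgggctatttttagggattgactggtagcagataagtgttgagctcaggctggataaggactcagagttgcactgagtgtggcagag
Junb: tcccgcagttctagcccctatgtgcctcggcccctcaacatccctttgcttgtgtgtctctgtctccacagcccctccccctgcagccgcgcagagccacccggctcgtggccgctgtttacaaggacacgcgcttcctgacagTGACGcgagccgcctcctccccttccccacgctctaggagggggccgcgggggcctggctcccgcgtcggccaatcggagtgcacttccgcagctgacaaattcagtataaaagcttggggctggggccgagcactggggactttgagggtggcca
Jund: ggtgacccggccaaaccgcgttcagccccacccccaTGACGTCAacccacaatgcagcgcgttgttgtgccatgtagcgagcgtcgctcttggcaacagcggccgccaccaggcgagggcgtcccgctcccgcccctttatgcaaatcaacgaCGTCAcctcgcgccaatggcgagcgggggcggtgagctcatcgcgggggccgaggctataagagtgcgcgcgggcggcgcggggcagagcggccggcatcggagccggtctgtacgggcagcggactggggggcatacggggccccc
Fos: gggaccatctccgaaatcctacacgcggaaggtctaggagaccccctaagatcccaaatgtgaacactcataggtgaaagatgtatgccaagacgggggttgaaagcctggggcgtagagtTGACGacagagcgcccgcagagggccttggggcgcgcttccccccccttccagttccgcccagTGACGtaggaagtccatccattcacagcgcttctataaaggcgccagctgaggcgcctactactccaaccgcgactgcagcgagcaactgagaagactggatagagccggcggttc
Fosb: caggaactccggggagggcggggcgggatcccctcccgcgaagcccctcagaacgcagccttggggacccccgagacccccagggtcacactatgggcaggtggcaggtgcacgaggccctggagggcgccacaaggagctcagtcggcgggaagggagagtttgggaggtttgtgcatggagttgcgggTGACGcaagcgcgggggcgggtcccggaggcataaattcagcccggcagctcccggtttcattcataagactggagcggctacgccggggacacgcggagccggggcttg

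Jun held the variant TGACATCA, beginning at base -45 from the start, which was present in 3.62% of 32851 windows of 27025 genes. Jund held the whole CRE at base -214, present in 1.79% of the windows, and a further core on the opposite strand at -97. The shares count RefSeq windows only, and the window printed for Jund is not among them. The core TGACG, which the whole CRE contains, began at -106 in Junb, at -129 and -66 in Fos and at -60 in Fosb, and was present in 20.8% of all windows. The element TGACTCA, which AP-1 itself binds, was found in 5.20% of windows, and the CArG box bound by serum response factor in 1.63%. Neither occurred in the 5 printed windows. Bases further upstream of Jun, Junb, Fos and Fosb were not searched. Whether these promoters hold TGACTCA or a CArG box beyond the windows was therefore not tested. The GC content of the windows was 60% for Jun, 65.3% for Junb, 70.3% for Jund, 58.7% for Fos and 68.3% for Fosb. A match is a run of letters and not a measured binding site.

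The genes differ in structure. Jun (ENSMUSG00000052684) covers chr4:95049034-95052222 on the minus strand, Junb (ENSMUSG00000052837) chr8:84974484-84978718 on the minus strand and Jund (ENSMUSG00000071076) chr8:70698949-70700616 on the plus strand, and the longest transcript of each has 1 exon. Fos (ENSMUSG00000021250, chr12:85473890-85477273, plus strand) and Fosb (ENSMUSG00000003545, chr7:19302696-19310051, minus strand) have 4 exons each. Jun is overlapped on the other strand by Junos, which had 11 and 35 UMIs in the sections labelled trained and untrained, and Jund by Gm11175, with 6 and 2 UMIs. Part of the Junb gene is overlapped by Prdx2, with 11899 and 27989 UMIs, but the overlap lies outside the transcript of Junb that spans bases 84976910 to 84978718. Across clusters the level of Prdx2 ran against that of Junb, with r = -0.41 and -0.44.

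Over the whole section labelled trained Jun had 1777 UMIs, Junb 805, Jund 7126, Fos 928 and Fosb 144. Over the section labelled untrained they had 2919, 2409, 9266, 1584 and 251 UMIs. Fosb was thus the most sparsely sampled, with at most 4 UMIs in any spot, and its values are the least certain. In the paragraphs that follow, paired values are given for the section labelled trained first and the section labelled untrained second.

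The question addressed first was where in the brain each gene was highest. Jun was highest in the dentate gyrus granule layer, the densely packed input layer of the hippocampus, in both sections. The CA1 pyramidal layer, the output layer of the same structure, had the lowest level of Jun of any region with at least 20 spots, although it could not be separated by counting error from the next lowest, the habenula or the choroid plexus. Junb had the opposite order in the hippocampus, and Junb, Fos and Fosb were all high in the neocortex. Jund was nearly even, with its highest level in white matter.

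**Figure D1:**
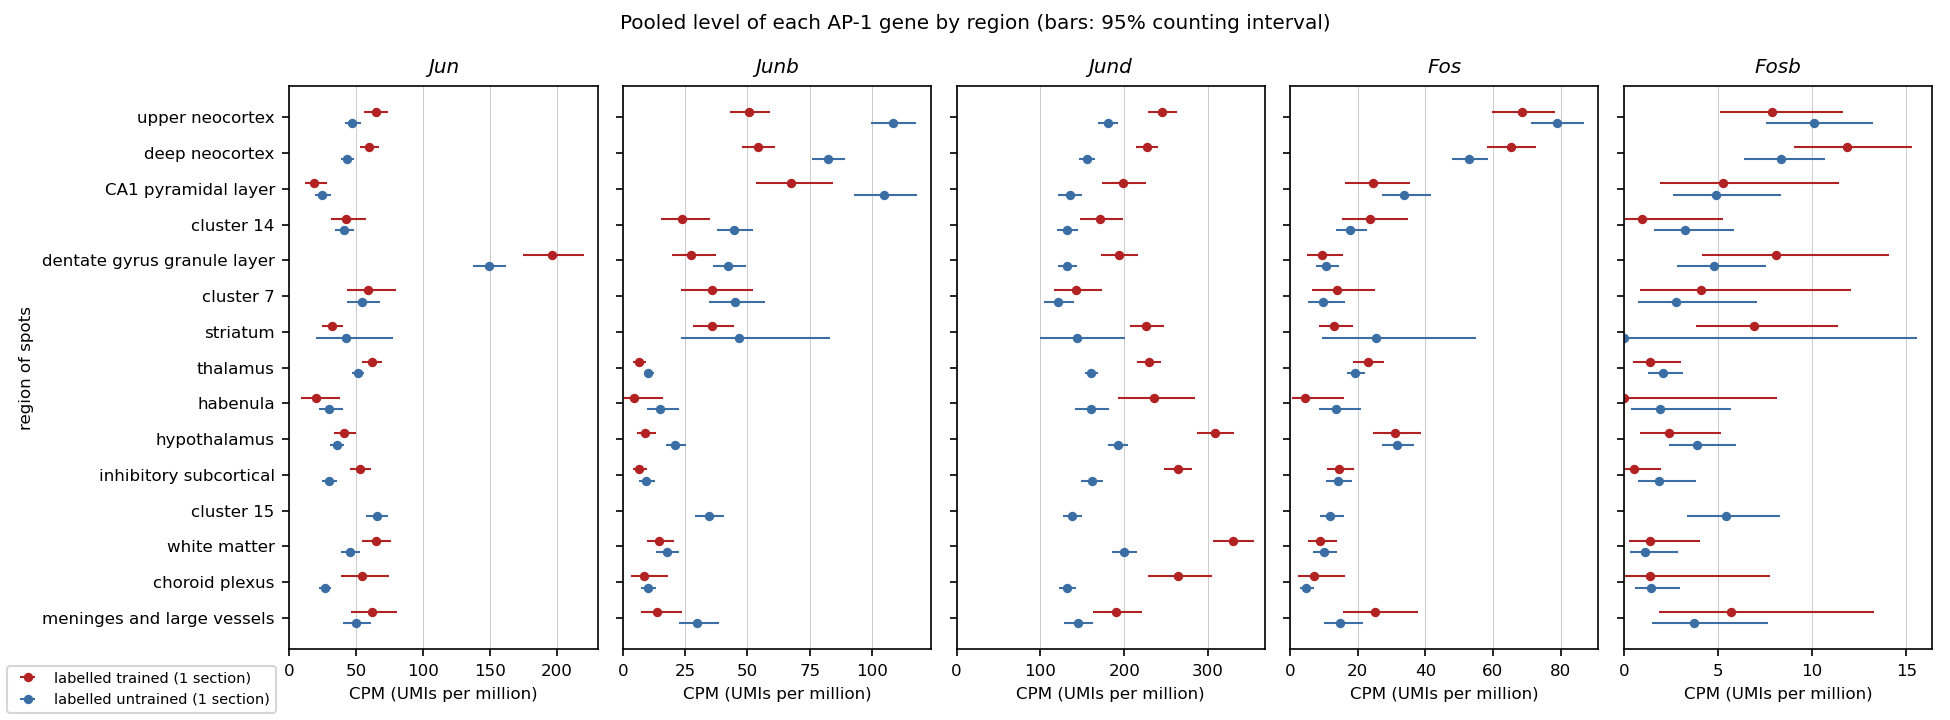
Level of each AP-1 gene in CPM (horizontal axes, UMIs per 1000000, linear from 0 and scaled to each gene) in each region of spots (vertical axis), for the sections labelled trained and untrained (1 section each), with bars for the 95% counting interval. Jun stands out in the dentate gyrus granule layer at 196 and 149 CPM, Junb in CA1 and neocortex, Fos in neocortex, and Jund shows the smallest spread.

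Jun, which encodes c-Jun, stood at 196 CPM in the 153 dentate granule spots of the section labelled trained and at 149 CPM in the 146 of the section labelled untrained. Relative to the rest of each section these were log2 ratios of 1.89 and 1.81. By this ratio Jun held rank 121 of 10566 genes and rank 119 of 12077 genes with at least 200 UMIs, of which 6.22% and 4.75% passed a log2 ratio of 1 in this layer. The granule layer held 5.05% and 6.37% of all UMIs but 16.4% and 19.2% of those of Jun. The nearest region below it was the upper neocortex in the section labelled trained and cluster 15 in the other, with log2 differences of 1.60 (1.34 to 1.87) and 1.19 (0.98 to 1.41).

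In the CA1 pyramidal layer Jun was at 18.4 and 24.4 CPM, log2 ratios of -1.72 and -1.04 over the rest, of which the second was -0.66 on the left of the array alone. The granule layer therefore exceeded CA1 10.4-fold and 6.07-fold, log2 differences of 3.38 (2.77 to 4.13) and 2.60 (2.24 to 3.01). Cluster 14, a group of hippocampal-side spots that could not be named from its markers, lay between them with 42.6 and 40.9 CPM. Among the remaining regions Jun ranged from 19.8 to 64.5 CPM in the section labelled trained and from 26.4 to 65.4 CPM in the other. In the section labelled trained the upper neocortex, white matter and meninges, at 64.5, 64.4 and 61.5 CPM, could not be separated within counting error. Within the thalamus, the relay nuclei between the senses and cortex, cluster 0 had 69.2 and 65.0 CPM of Jun and cluster 3 had 55.4 and 35.2 CPM, and in the section labelled untrained the interval of their log2 difference, -0.88 (-1.16 to -0.62), lay below 0.

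Junb, whose product pairs with Fos proteins and is a weaker activator than c-Jun at many targets, was highest in CA1 and neocortex. CA1 held 67.5 and 105 CPM, log2 ratios of 1.40 and 1.48 over the rest, in a layer where 4.93% and 3.79% of genes passed a log2 ratio of 1. The upper neocortex held 50.7 and 108 CPM (log2 1.06 and 1.66) and the deep neocortex 54.2 and 82.4 CPM (1.32 and 1.24). CA1 exceeded the upper neocortex by 0.42 (0.00 to 0.81) on the log2 scale in the section labelled trained and differed from it by -0.05 (-0.26 to 0.16) in the other, so the order of these regions was not settled.

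Junb was low below the cortex. The thalamus had 6.25 and 10.2 CPM and the region called inhibitory subcortical 6.54 and 9.30 CPM. The habenula had 4.40 and 14.9 CPM, from 2 and 23 UMIs. The name inhibitory subcortical does not cover cluster 10 of that region, with 216 and 55 spots. This cluster was led by Slc10a4 and Slc5a7, genes of cholinergic neurons, and had 1 inhibitory marker, Slc32a1, among its 10 leading genes. Cluster 10 had 11.0 and 6.35 CPM of Junb, from 15 and 1 UMIs. Cluster 5, the largest of the region, had 5.15 and 8.60 CPM, from 7 and 27 UMIs. The upper neocortex exceeded the thalamus 7.98-fold and 10.6-fold. The striatum, a forebrain target of the cortex, was intermediate with 35.8 and 46.4 CPM, although only 30 spots represented it in the section labelled untrained. In the hippocampus the granule layer was lower than CA1 by log2 ratios of -1.29 (-1.88 to -0.73) and -1.31 (-1.60 to -1.02), the reverse of Jun.

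Fos, the classical activity-induced partner of the Jun proteins, was highest in the neocortex. The upper neocortex had 68.6 and 78.8 CPM (log2 1.35 and 1.85 over the rest) and the deep neocortex 65.3 and 53.0 CPM (1.41 and 1.20). In the upper neocortex 2.56% and 2.66% of genes passed a log2 ratio of 1, among them Junb and Fos in both sections and Fosb in the section labelled untrained, where it met the minimum of 200 UMIs. Upper and deep neocortex differed by a log2 ratio of 0.57 (0.37 to 0.78) in the section labelled untrained and of 0.07 (-0.18 to 0.32) in the section labelled trained. The next levels were those of the hypothalamus, 30.9 CPM, in the section labelled trained and of CA1, 33.8 CPM, in the other, where the hypothalamus had 31.6 CPM.

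Unlike Jun, Fos was low in the granule layer, at 9.40 and 10.7 CPM, close to white matter at 8.80 and 9.89 CPM. The log2 difference between granule layer and white matter was 0.11 (-1.01 to 1.17) and 0.10 (-0.58 to 0.80). CA1 was higher than the granule layer, at 24.5 and 33.8 CPM, and the choroid plexus, which secretes cerebrospinal fluid, had 6.96 and 4.78 CPM. Summed levels of the 6 neuronal markers were 3521 and 3316 CPM in the granule layer and 1416 and 1238 CPM in white matter, while the intervals of the Fos difference between these regions included 0.

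Fosb, the source of the long-lived variant known as delta-FosB, was highest in the deep neocortex of the section labelled trained, at 11.9 CPM (log2 1.78), and in the upper neocortex of the section labelled untrained, at 10.1 CPM (log2 1.46). The deep neocortex of the latter had 8.35 CPM and the upper neocortex of the former 7.87 CPM, and neither pair of neighbours was separated by its interval. The granule layer had 8.06 and 4.79 CPM from 12 and 18 UMIs. White matter had 1.39 and 1.13 CPM, and the interval of its difference from the granule layer excluded 0 in both sections. The ratio of 1.78 in the deep neocortex was 1.01 with coarser clusters, and in the section labelled untrained the ratio of 1.20 was 0.48 in cluster 18 of that region alone.

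Jund, which encodes a steadily expressed Jun protein often described as a brake on growth, was highest in white matter at 330 and 200 CPM, log2 ratios of 0.49 and 0.37 over the rest. Hypothalamus came next with 308 and 192 CPM, and the difference between these regions was 0.10 (-0.05 to 0.24) and 0.06 (-0.08 to 0.20). The lowest level was in cluster 7, at 143 and 121 CPM. The highest region exceeded the lowest 2.31-fold and 1.65-fold for Jund, against 10.6-fold and 6.11-fold for Jun. For Junb the folds were 15.4 and 11.7, and for Fos 15.6 and 16.5. In the section labelled trained the lowest region of Junb and of Fos was the habenula, with 2 UMIs of each, so those folds are uncertain. These folds divide CPM without the pseudocount of 0.5 UMI used for the other folds and the log2 ratios. In white matter the 8 oligodendrocyte markers that named it summed to 41741 and 36008 CPM and the 6 microglial markers to 614 and 504 CPM, against 293 and 273 CPM over the whole section. The part of these cell types in the level of Jund was not tested. Of the clusters joined as white matter, cluster 8 alone had a log2 ratio of 0.17 over the rest in the section labelled trained.

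Sections of different mice kept these patterns to different degrees. Pearson's r of log2(CPM + 1) between sections was taken over the 14 regions with at least 20 spots in both sections. It was 0.95 for Junb, 0.84 for Fos, 0.84 for Jun, 0.83 for Jund and 0.45 for Fosb. The points share their clustering and differ in depth, and are given as a description. The 2 hemispheres were also compared. Junb was lower on the left of the array than on the right in both sections, by log2 ratios of -0.31 (-0.53 to -0.10) and -0.53 (-0.66 to -0.41). Fos was lower on the left in the section labelled untrained, -0.35 (-0.50 to -0.20), and not detectably so in the other, 0.11 (-0.09 to 0.30). Jun differed in the section labelled trained, -0.23 (-0.37 to -0.09), and Jund and Fosb in the section labelled untrained, -0.19 (-0.25 to -0.13) and -0.51 (-0.90 to -0.13). The side of the array was not matched to left or right of the brain, and these values did not hold the mix of regions on each side fixed. Within regions, the interval for Junb lay below 0 in 1 of 14 regions of the section labelled trained, the deep neocortex. It did so in none of 14 of the section labelled untrained, where the upper neocortex stood at -0.18 (-0.49 to 0.11). For the other genes, in the section where the whole differed, intervals lay below 0 in 1 of 14 regions for Jun, 3 for Jund, 1 for Fosb and none for Fos.

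**Figure D2:**
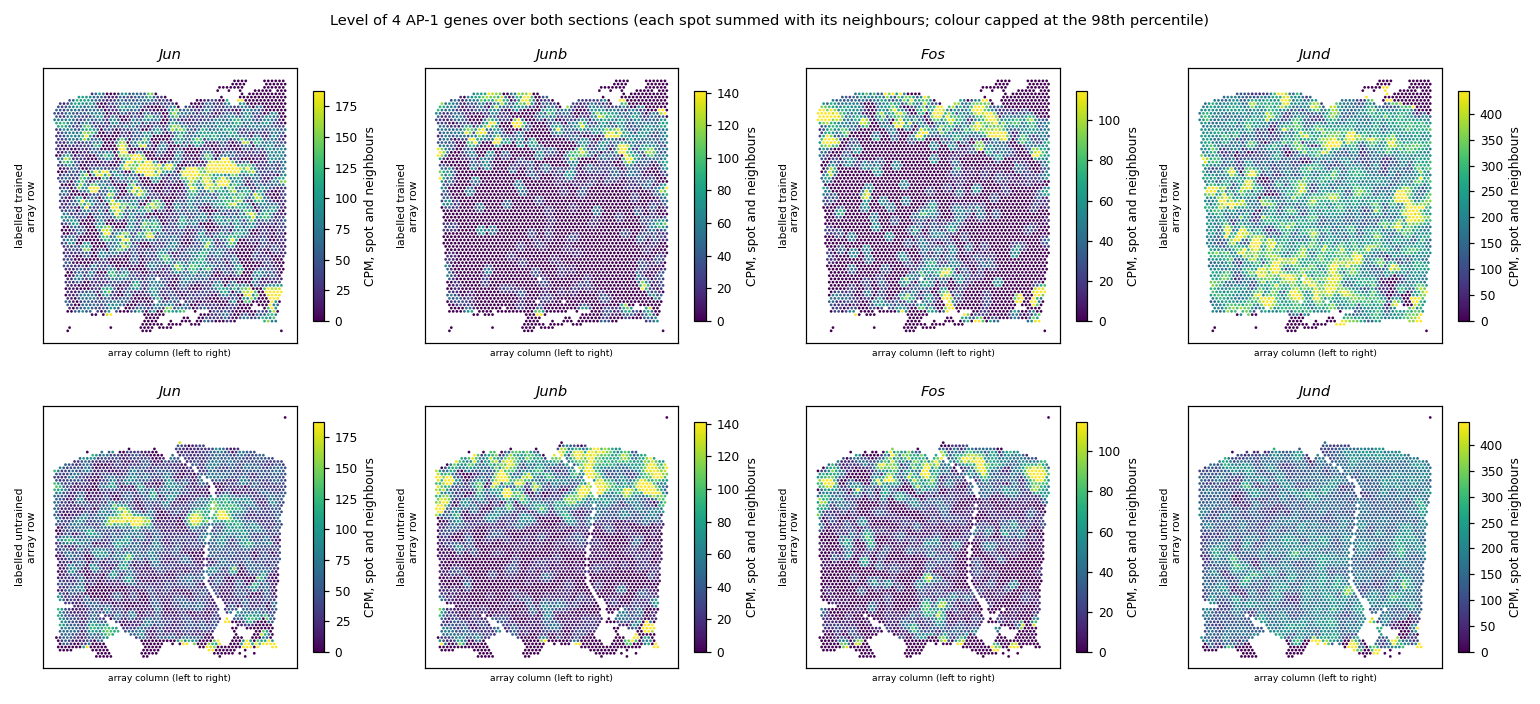
Level of Jun, Junb, Fos and Jund in CPM (colour, each spot summed with its neighbours and capped at the 98th percentile of spots) over the array columns and rows of the sections labelled trained and untrained. Jun traces the granule layer of the dentate gyrus on both sides, Junb and Fos fill the neocortical rim, and Jund is spread over the section.

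Spatial scores deposited by the authors gave a further measure for the same counts. Moran's I, which is near 0 when neighbouring spots are unrelated in level and rises when they are alike, was 0.0656 and 0.111 for Jun, 0.102 and 0.263 for Junb, 0.114 and 0.106 for Jund, 0.117 and 0.183 for Fos and 0.0341 and 0.0288 for Fosb. Junb in the section labelled untrained stood at rank 524 of 21498 genes. These scores were computed on spots of unequal depth. With the 3651 and 3522 spots of at least 2000 UMIs thinned to that number, which changes both the depth and the spots used, I was 0.034 and 0.0367 for Jun and 0.0394 and 0.0598 for Junb. Thinning left values of 0.0214 and 0.000862 for Jund, of 0.000928 and 0.0339 for Fos and of 0.0179 and -0.00454 for Fosb. These values come from 1 seeded draw, in which Fos had a UMI in 148 and 165 spots and Fosb in 27 and 17. How much they vary from draw to draw was not tested, so their differences between sections are not settled.

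Detection in single spots was sparse at equal depth. As deposited, Jun had a UMI in 28.3% and 44.1% of spots, Junb in 13.9% and 32.8%, Jund in 68.4% and 79.4%, Fos in 15.7% and 25.4% and Fosb in 3.13% and 6.02%. At 2000 UMIs a spot, with 3651 and 3522 spots kept and 501 and 216 shallower spots left out, the shares expected over all draws were 10.6% and 8.85% for Jun, 4.05% and 6.65% for Junb and 37.6% and 26.7% for Jund. Those of Fos were 4.77% and 4.55%, and those of Fosb 0.757% and 0.736%. At equal depth Jun thus had the higher share in the section labelled trained, although as deposited the order was the other way round. Junb had the higher share in the section labelled untrained, although in a single draw its counting intervals, 4.05% to 5.45% and 5.36% to 6.98%, just overlapped. The intervals of Fos and of Fosb also overlapped between sections.

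Shares by region are set beside those of white matter, which has few neuronal cell bodies but is not the lowest region for every gene. At 2000 UMIs Fos had a UMI in 1.78% and 1.71% of white-matter spots and in 1.46% and 1.74% of granule-layer spots, so that its share in the granule layer was close to that of white matter. It reached 12.3% and 13.1% in the upper neocortex. Junb was found in 2.75% and 3.06% of white-matter spots, in 0.983% and 2.13% of thalamic spots and in 10.8% and 17.8% of CA1 spots. The thalamus thus had the lower share of spots with Junb. Jun was found in 11.6% and 8.61% of white-matter spots, above its 4.49% and 5.32% in CA1, and in 26.5% and 24.5% of granule-layer spots. Jund was found in 46.6% and 32.7% of white-matter spots. Median depths were 4022 and 7143 UMIs in white matter and 7887 and 22386 in the granule layer before thinning.

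The next question was whether spots with one AP-1 gene tended to hold another. With spots thinned to 2000 UMIs the correlations across spots were close to 0 for every pair, with an r of at most 0.0481 in size. The size depends on the depth chosen, and at most r was 0.0225 at 1000 UMIs and 0.109 at 5000 UMIs, each time for Junb with Fos. In the section labelled trained the highest were Junb with Fos and, at 0.0314, Jun with Jund, and the latter was 0.00482 in the other section. By the share of spots that held both genes, the pairs furthest from independence were those of Junb, Fos and Fosb with each other. The pairs with Fosb rest on very few spots.

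**Figure D3:**
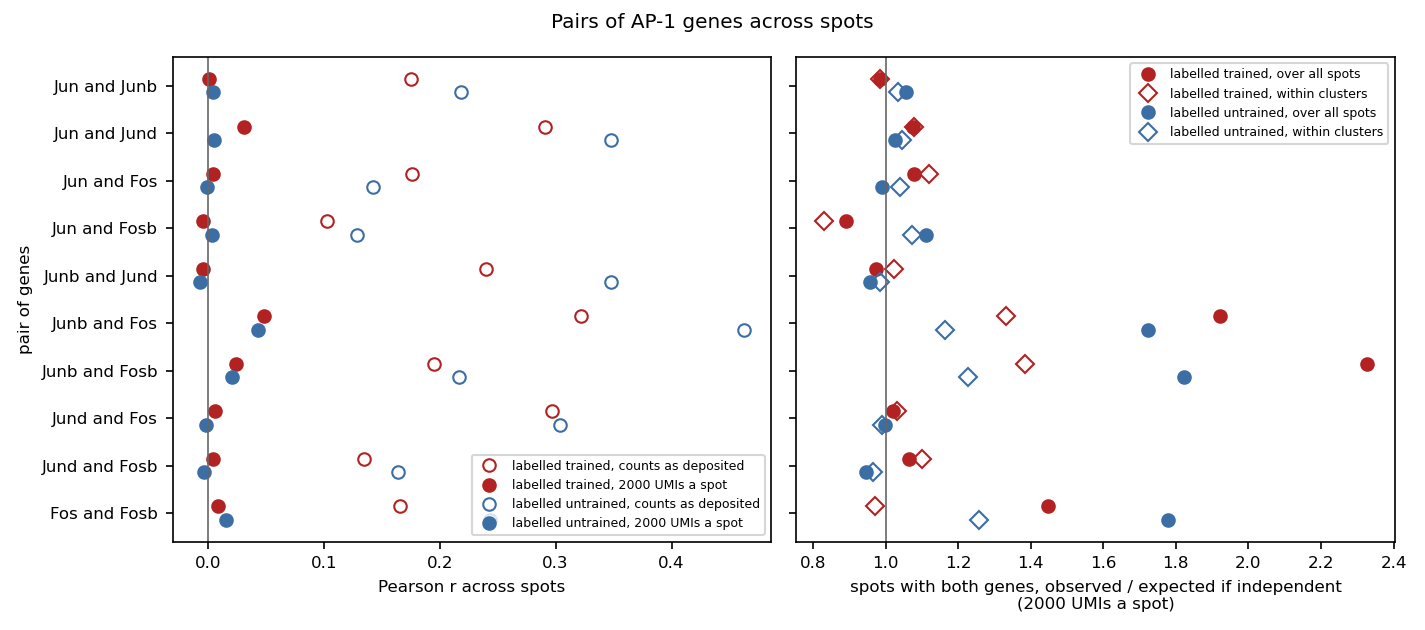
Left, Pearson r across spots (horizontal axis) for each pair of AP-1 genes (vertical axis) as deposited and at 2000 UMIs a spot, in the sections labelled trained and untrained. Right, the share of spots with both genes over the share expected if they were independent, over all spots and within clusters. The r as deposited shrinks to near 0 at equal depth, and Junb with Fos and Junb with Fosb lie right of 1 in both sections.

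For Junb and Fos, r was 0.0481 and 0.0436 over 3651 and 3522 spots, 0.11 and 0.10 at 5000 UMIs a spot, and 0.32 and 0.46 in the counts as deposited, where deeper spots hold more of every gene. Spots of a section share a library and neighbours, so that no test was made. At this depth a UMI of either gene is rare, so the share of spots with both, expected over all draws, was also taken. For Junb and Fos it was 0.371% and 0.521%. Spots with Junb and Fos together were 1.92 and 1.72 times as frequent as for independent genes. Within clusters, where differences between regions are removed, this ratio to independence was 1.33 and 1.16. For Junb and Fosb the ratio was 2.33 and 1.82, and 1.38 and 1.23 within clusters. Junb and Fosb were expected together in only 0.0714% and 0.0891% of spots, so that these ratios are uncertain.

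Fos and Fosb coincided 1.45 and 1.78 times as often as independent genes would, and 0.97 and 1.26 times within clusters. They were expected together in only 0.0522% and 0.0595% of spots. Jun behaved differently. Spots with Jun and Junb were 0.985 and 1.06 times as frequent as for independent genes, and spots with Jun and Fos 1.08 and 0.991 times. The remaining pairs lay between 0.89 and 1.11. Jun and Fos, the canonical partners, thus shared spots about as often as their separate frequencies give. Levels were also compared over the 21 clusters with at least 100000 UMIs in each section. Across those clusters r was 0.73 and 0.64 for Junb with Fosb and 0.48 and 0.52 for Junb with Fos, but 0.08 and -0.05 for Jun with Fos and -0.04 and 0.21 for Jun with Junb. It was 0.35 and 0.37 for Fos with Fosb, 0.29 and 0.16 for Jun with Fosb and -0.22 and 0.32 for Jund with Fos. Clusters of a section share a library and vary in depth and size.

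Genes whose levels followed each member most closely over the 21 clusters were then sought among 8408 genes, ranked by the lower r of both sections. For Jun they were Thrsp, Napepld, which encodes an enzyme of the endocannabinoid-like lipids, and Cacna1c, an L-type calcium channel subunit, with lower r of 0.66, 0.62 and 0.57. For Junb they were Egr3, an immediate early zinc-finger factor, Ctxn1 and Rprml, with 0.89, 0.88 and 0.88. Among those of Jund were Vps28 and Dusp26, with 0.70 and 0.69. Among those of Fos were Ttc9b and Wdfy3, with 0.73 and 0.73, and Fosb was followed by Ankrd33b, Smpd4 and Homer1, a postsynaptic scaffold gene, with 0.76, 0.74 and 0.72. Over the 15 clusters of neurons alone, none of the closest 3 genes of Junb and none of those of Fos remained among the closest 3.

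Other immediate early genes were set beside each of the 5 genes in the same way. Of the 15 compared, 10 had an r of at least 0.5 with Junb in both sections, 6 with Fos and 6 with Fosb, and none with Jun or Jund. Of all 11456 genes compared, 6.13% reached this bound with Junb, 4.35% with Fos, 2.76% with Fosb, 1.16% with Jund and 0.183% with Jun, so that few genes of any kind did so with Jun or Jund and the counts of 0 for them say little about the list. The medians of the lower r were 0.65 for Junb, 0.49 for Fos, 0.44 for Fosb, 0.04 for Jun and -0.36 for Jund. Egr1, the best sampled of the list, had r of 0.83 and 0.89 with Junb and of -0.01 and 0.08 with Jun.

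The last comparison was between the labels, and asked whether AP-1 genes differed between the section of the trained and that of the untrained mouse. Directions are given for the labels as deposited. The text of the study may name the sections the other way round, since it counts more hippocampal spots with Jun in the trained animal. The study counted spots after it had cropped its data to the hippocampus and normalized them. The shares that follow cover other sets of spots and counts that are not normalized. In the deposited counts Jun was found in 64.7% of granule-layer and 17.5% of CA1 spots of the section labelled trained and in 91.8% and 38.8% of those of the other, which was the more deeply sampled. As deposited, the direction of that share opposes the study's, although the spots and the scaling are unlike. At 2000 UMIs a spot the shares were 26.5% and 24.5% in the granule layer and 4.49% and 5.32% in CA1, with no settled order. Over all spots they were 10.6% and 8.85%. Levels of Jun were 196 and 149 CPM in the granule layer and 18.4 and 24.4 CPM in CA1. Which section was trained is not settled by these values. Jund was higher in the section labelled trained and Junb was lower in all 14 regions compared. Jun was higher there in 11 regions, with an interval above 0 in 7. Fos and Fosb did not differ in a settled direction. The genes of this family thus did not move as a group.

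Jund stood at 241 CPM in the section labelled trained and 157 CPM in the section labelled untrained, a log2 ratio of 0.62 (0.58 to 0.67). Junb stood at 27.3 and 40.8 CPM, a ratio of -0.58 (-0.70 to -0.47). Among 11460 genes with at least 400 UMIs over both sections, 11.6% had a ratio of 0.5 or more and 6.61% one of -0.5 or less, and the median was 0.07. Of the 4 AP-1 genes above that minimum, 1 (Jund) lay past the upper and 1 (Junb) past the lower bound. Of all the genes compared 93.2% had a lower ratio than Jund and 4.83% a lower ratio than Junb, and with the labels exchanged these shares would be 6.83% and 95.2%. Jun, with 60.2 and 49.5 CPM, had a ratio of 0.28 (0.20 to 0.37), higher than that of 72.6% of genes, or of 27.4% with the labels exchanged.

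The ratio of Fos, 0.23 (0.11 to 0.35) from 31.4 and 26.8 CPM, depended on how spots were combined. It was 0.07 with spots thinned to 2000 UMIs, 0.05 with a common mix of regions in both sections, 0.02 with each spot weighted equally, 0.50 on the left of the array and 0.05 on the right. The ratio of Junb was -0.98 with each spot weighted equally and -0.44 on the left of the array, where it was no longer past the lower bound, that of Jun was 0.18 on the left of the array, and that of Jund stayed between 0.55 and 0.72. Fosb, with 144 and 251 UMIs, lay below the minimum, and the interval of its ratio, 0.20 (-0.11 to 0.50), included 0. Weighted by spot, Fosb stood at -0.04. The sections differed in their mix of tissue, with 74 and 162 choroid plexus spots and 5409 and 18305 CPM summed over the 6 choroid plexus markers. The striatum had 219 and 30 spots, the region called inhibitory subcortical 655 and 351 and cluster 15 had 13 and 192.

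**Figure D4:**
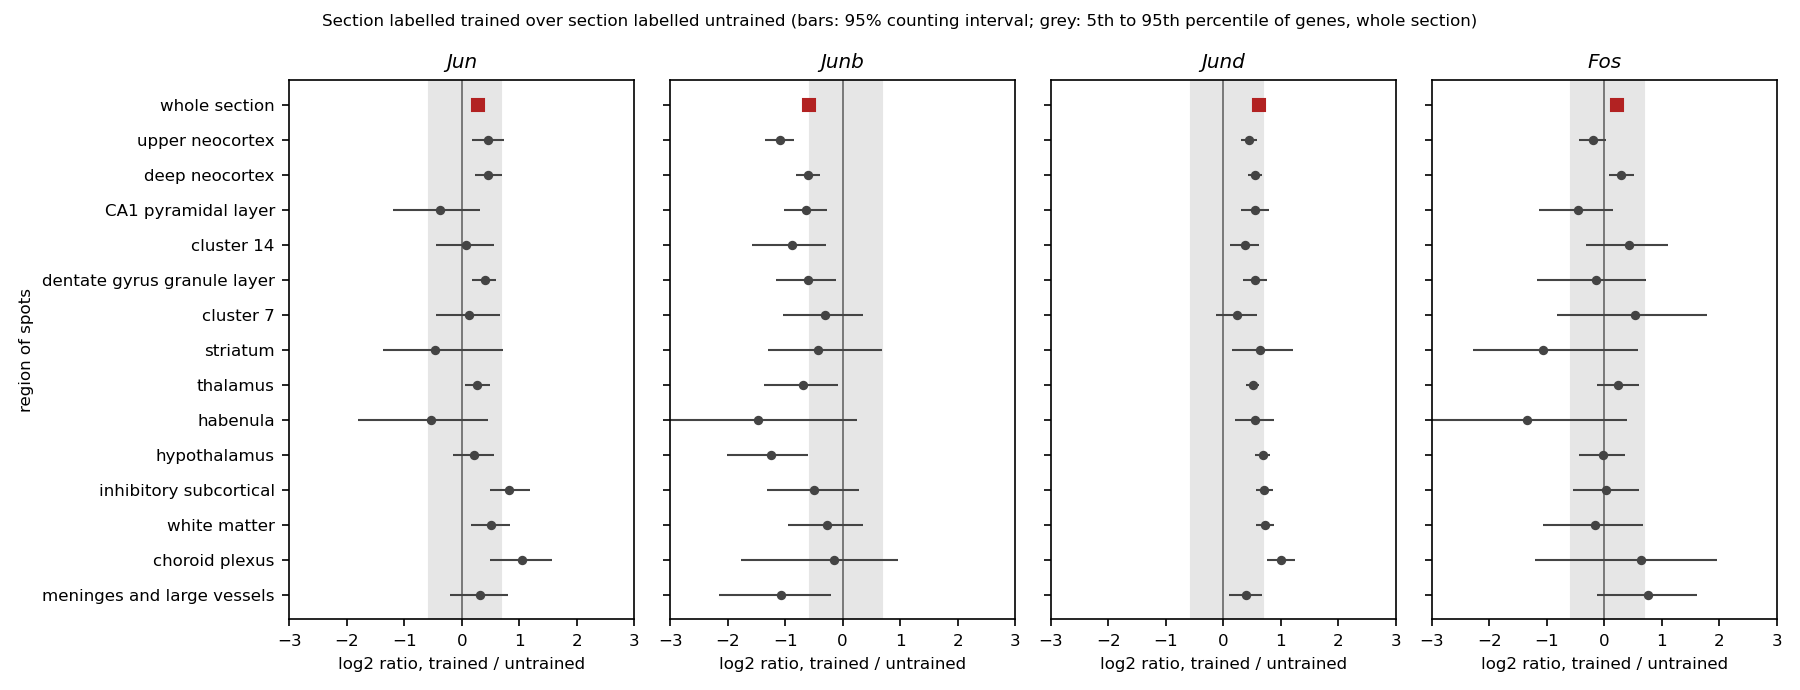
Log2 ratio between sections, labelled trained over labelled untrained (horizontal axis), in each region and over the whole section (vertical axis) for Jun, Junb, Jund and Fos, with points for regions, a square for the whole section, bars for the 95% counting interval (cut at -3 for the habenula) and a grey band from the 5th to the 95th percentile of all genes over the whole section, -0.57 to 0.69. Junb lies left of 0 and Jund right of 0 in all 14 regions, while Fos falls on both sides.

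Region by region, Junb was below 0 in 14 of 14 regions, between -1.47 in the habenula and -0.16 in the choroid plexus, with an interval below 0 in 8. The value in the habenula rests on 2 and 23 UMIs, with an interval of -4.89 to 0.25. The ratio of Junb was -1.09 (-1.36 to -0.84) in the upper neocortex, -0.88 (-1.58 to -0.29) in cluster 14 and -0.63 (-1.02 to -0.27) in CA1. Jund was above 0 in 14 of 14 regions, with an interval above 0 in 13, from 0.24 in cluster 7 to 1.01 in the choroid plexus. Regions of a section share 1 library, so that this count is no count of replicates.

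Jun was above 0 in 11 regions and below 0 in 3, with an interval above 0 in 7 and below 0 in none. It was highest in the choroid plexus, 1.05 (0.48 to 1.57), and in the region called inhibitory subcortical, 0.83 (0.49 to 1.18), and stood at 0.39 (0.18 to 0.60) in the granule layer. The first pair of regions join clusters that the sections held in different proportions. In the choroid plexus, cluster 16, with 51 and 137 spots, stood at 1.25 (0.61 to 1.82) and cluster 21, with 23 and 25 spots, at 0.01 (-1.44 to 1.20). In the other region, clusters 5, 17 and 10 stood at 0.64 (0.11 to 1.14), 0.83 (0.17 to 1.58) and -0.25 (-1.30 to 1.22). Fos was above 0 in 7 regions and below 0 in 7, and among these regions its interval excluded 0 only in the deep neocortex, 0.30 (0.08 to 0.52). There the small cluster 18, with 81 and 73 spots, stood at 0.85 (0.33 to 1.40) and cluster 1, with 344 and 373 spots, at 0.17 (-0.07 to 0.41). Within the thalamus, cluster 3 stood at 0.67 (0.19 to 1.15) and cluster 0 at -0.35, with an interval that included 0. In the upper neocortex Fos was at -0.20 (-0.44 to 0.04). No region gave an interval for Fosb that excluded 0.

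Of the other genes of the pathway 52 of 60 were compared, of which 8, or 15.4%, passed 0.5 and 1, or 1.92%, passed -0.5, beside 11.6% and 6.61% of all genes. Among dimer partners of the basic leucine zipper class, 9 of 14 were compared, of which 2 passed 0.5 and 1 passed -0.5. The best sampled were Atf4, a factor of the stress response, at -0.15, Atf2, a partner of c-Jun, at 0.36 and Jdp2, a repressor of AP-1, at 0.83, and Atf7 lay past the lower bound at -0.55. Of 13 MAP kinases and kinases that act above or below them, 13 were compared and 1 passed 0.5, Map2k1, which encodes a kinase that activates MAP kinases, at 0.59, while Mapk10 stood at 0.04.

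Activators that bind the promoters of these genes gave 9 compared of 9 and 1 past 0.5, Srf, which binds the CArG box, at 0.53. Mef2c, Mef2d and Mef2a stood at 0.25, -0.07 and -0.05. Of the 8 MAP kinase phosphatases, which switch the kinases off, 6 were compared and 1 passed 0.5, Dusp10 at 0.68, with Dusp1 at 0.38, Dusp6 at 0.14 and Dusp14 at -0.01. Other immediate early genes ranged from -0.18 to 0.54, with 3 of 15 past 0.5 and none past -0.5. Ier5 was at 0.54, Egr1 at 0.17 and Arc at 0.14, so that no listed immediate early gene outside the family matched the ratio of Junb.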

How the data were processed

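Visium libraries of 2 sections had been processed by the authors with TrimGalore and, per the labels, Space Ranger 2.0.0 on mm10. The deposited matrices hold counts, UMIs per gene and spot over tissue, without normalization. Moran's I was taken from the authors' deposited tables, where it is a score per gene. The p-values and the summed columns of those tables, also by the authors, were not used here. No column of another sample was found.

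The genes, the lists and the comparisons were chosen with earlier results of these data known. The named genes were the 5 AP-1 genes, the 3 genes most like each across clusters with at least 400 UMIs in each section, and the 3 genes of each pathway list with most UMIs, to which genes past the fold were added after their values were seen. Some genes that this rule selects are not reported here. Spots of at least 500 UMIs were clustered together from both sections on 946 genes, which exclude the AP-1 genes, the pathway lists and other activity genes, with 30 principal components, 15 neighbours and the Leiden method at resolution 1.5 (scanpy 1.11.5, leidenalg 0.10.2, seed 7). A cluster was named when the mean z score of its best marker set was above 0.75, at least 3 of those markers reached 5 CPM, and its 10 leading genes held at least 1 of them and no more of another set. The threshold was chosen, like the joining of clusters and the midline, with the maps in view. Clusters 7, 14 and 15 passed the score but had none of their markers among the leading genes and stayed unnamed. Doublets are not defined for spots.

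Counts were pooled over spots and scaled to 1000000. Log2 ratios used a pseudocount of 0.5 UMI, and 95% intervals were exact (Poisson for a level, conditional binomial for a ratio). Genes were set beside the members when they had at least 400 UMIs over both sections, or at least 200 within 1 section. Equal depth meant thinning each spot without replacement to 2000 UMIs, and moments and shares were the expectation over all draws. Moran's I at equal depth and the intervals of shares came from 1 seeded draw. Likeness was Pearson's r of log2(CPM + 1) over 21 clusters with at least 100000 UMIs in each section. Gene positions came from GENCODE vM21 on mm10 and promoter windows from RefSeq tables, in which all 5 symbols matched. Protein sequences were not used here. The scripts were tested on simulated data. With 1 section per group no p-value was computed. The tools were pandas 2.3.3, numpy 2.4.6 and scipy 1.17.1 under Python 3.11.15, with matplotlib 3.10.9 for drawing.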

Additional observations from a re-analysis of the deposited data

How the results depend on the processing

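No paired analysis was possible because each group holds 1 section. Of 45 alternative values of the ratios between sections 15 moved beyond their counting interval, as did 16 of 152 for regions and 6 of 120 for pairs, and none of these changed sign with a called value. With each spot weighted equally the ratios between sections were -0.98 for Junb and 0.016 for Fos. Thinning gave -0.75 for Junb and 0.069 for Fos, and a common mix of regions 0.37 for Jun, -0.74 for Junb and 0.047 for Fos. The left side alone gave 0.18 for Jun, -0.44 for Junb, 0.72 for Jund and 0.50 for Fos, and the right side 0.55 for Jund and 0.046 for Fos. Jund fell to 0.56 without mitochondrial genes and to 0.55 with median scaling. With no filter on low counts 4579 genes lay past 0.5 and 4121 past -0.5, against 1331 and 757. Region over rest, each spot weighted equally, was 1.61 for Jun in the granule layer and 1.35 for Junb and 1.62 for Fos in the upper neocortex of the section labelled trained, and 1.24 for Junb in CA1 and 1.36 in the upper neocortex of the other. The left side gave 1.32 for Junb in the upper neocortex and 0.35 for Jund in white matter of the section labelled trained, and -0.66 for Jun in CA1 and -1.87 for Junb in the thalamus of the other. At resolution 1.0, Jund in white matter was 0.61 and Fosb in the deep neocortex 1.01, both in the section labelled trained, where core spots gave 0.61 for Jund. Taken alone, a choice made after seeing the data, cluster 0 gave -2.94 for Junb, cluster 4 gave 0.62 and cluster 8 gave 0.17 for Jund, and cluster 18 of the section labelled untrained gave 0.48 for Fosb. At 5000 UMIs r of Junb and Fos was 0.109 and 0.098. Core spots of CA1 were not run, since fewer than 20 remained. Of 30 alternative shares of spots, 29 moved with the depth chosen, and of 10 alternative likeness values 2 moved. Fosb, with 144 and 251 UMIs, was limited by depth.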
